A study of Mus musculus with 10 samples.

Results

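Cytochromes P450 are heme enzymes of the endoplasmic reticulum that oxidise drugs, toxins, fatty acids and steroids with electrons from NADPH. The genes of families 1 to 4 described here were all those whose symbol consists of Cyp, a family number from 1 to 4, a subfamily letter and a gene number. They were taken from array probe sets that carry exactly 1 gene symbol, and the probe set with the highest mean was used where a gene had several. This gave 72 genes of the 22180 measured, 3 in family 1, 47 in family 2, 7 in family 3 and 15 in family 4. The symbols Cyp2c67, Cyp4a10 and Cyp4a32 occur only on probe sets shared with other genes and are not among them, nor are symbols with a further letter such as Cyp4a12a.

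The arrays hold RNA from portal tracts of 1-week-old mice, taken from frozen sections by laser capture (12 to 20 tracts in each replicate). A portal tract carries blood into the lobule and bile out of it, and is wrapped in fibroblasts, with periportal hepatocytes at its edge. Jag1+/-Rfng+/- samples (5 arrays) are heterozygous for the Notch ligand gene Jag1 and for Rfng, which encodes a glycosyltransferase that modifies Notch receptors, and control samples (5 arrays) come from mice of the strain C57Bl/6J. The strain of the Jag1+/-Rfng+/- mice, the type of the mutant alleles and the genotype of the controls beyond the word control are not given in the sources used here, nor whether each sample is 1 mouse, so the p-values below measure the spread between these samples.

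In adult liver most P450 genes of these families are expressed by hepatocytes, and many of them most strongly around the central vein, where Wnt signalling maintains them, while Cyp2f2 is the classical periportal member. Ligand-activated receptors drive whole groups of them: the aryl hydrocarbon receptor (Ahr) family 1, the constitutive androstane receptor (Nr1i3) Cyp2b10, the pregnane X receptor (Nr1i2) Cyp3a11 and the fatty acid receptor PPARalpha (Ppara) the Cyp4a genes. Around birth mice switch from a fetal to an adult set, with Cyp3a16 as a perinatal gene, Cyp2e1, Cyp3a11, Cyp4a10 and Cyp4a14 appearing in the first days, and others rising only towards weaning. The word xenobiotic describes only some members, since Cyp2r1 hydroxylates vitamin D, Cyp2c70 makes muricholic acids and many Cyp4 enzymes act on fatty acids and eicosanoids.

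All levels below are log2 array values, and levels of different genes are not comparable because their probes differ. A gene without expression can read up to 2.91, the top of the range of 1.82 to 2.91 covered by 18 readings of genes that should be silent: Eif2s3y, Kdm5d and Uty of the Y chromosome on the 4 arrays with high Xist, and Xist on the other 6. By that measure 48 of the 72 genes had a mean above the absent range, 40 of them on all 10 arrays, and 15 were within it on every array. The 48 comprised 2 of family 1, 28 of family 2, 6 of family 3 and 12 of family 4. All arrays had medians between 3.22 and 3.30. The least similar array was Jag1+/-Rfng+/- replicate 5 (r at most 0.963 with any other, where all other pairs gave at least 0.969); the word excl in its sample name is not explained. The signal of Rfng averaged 4.36 ± 0.16 in Jag1+/-Rfng+/- and 4.82 ± 0.20 in controls, and that of Jag1 4.39 ± 0.63 and 5.72 ± 0.93 (SD, n = 5 each); the adjusted p of neither passed 0.05, and the probes may lie outside the altered part of each gene.

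The hepatocyte genes that surround P450 expression were present on every array. The 13 measured hepatocyte markers, among them the albumin gene Alb, lay above the absent range, and the mean of the list, set relative to its control mean, ranged from -0.14 to 0.02 on the Jag1+/-Rfng+/- arrays, against -0.04 to 0.06 on the control arrays. Apart from Apoc3, their signals were high, where no probe set exceeded 12.47. Alb read 12.08 to 12.20 in Jag1+/-Rfng+/- and 12.13 to 12.27 in controls. Serpinc1 read 10.32 to 10.90 in Jag1+/-Rfng+/- and 10.63 to 10.91 in controls. Apoc3 read 5.98 to 7.75 in Jag1+/-Rfng+/- and 6.59 to 7.20 in controls. The pericentral genes Glul and Gulo were also above the absent range on every array. Portal fibroblast markers differed more: of 16 measured markers 13 were lower in Jag1+/-Rfng+/-, 9 of them at an unadjusted p under 0.05, where the background was 3.79% of genes, and the list mean ranged from -1.52 to -0.02 in Jag1+/-Rfng+/-, against -0.75 to 0.41 in controls. Of 10 cholangiocyte markers 7 were lower and 3 higher (6 and 2 at an unadjusted p under 0.05), of 12 endothelial markers 7 lower and 5 higher, and of 12 Kupffer cell markers 11 higher and 1 lower. Among the last 2 lists 1 endothelial and 2 Kupffer cell markers were higher at an unadjusted p under 0.05, against 2.98% of all genes. The Kupffer cell count varied with single arrays: it was 8 higher and 4 lower without Jag1+/-Rfng+/- replicate 1 (median 0.15, against 0.27 with all arrays), and 9 higher and 3 lower without control replicate 3 (median 0.13). It was 12 higher and 0 lower without Jag1+/-Rfng+/- replicate 5 (median 0.35), and the median stayed above 0 whichever array was left out. In such captured tissue, fewer cells of a type and less RNA per cell cannot be told apart.

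The sequence before the transcription start was at hand for 60 of the 72 genes (67 windows of 250 bases before to 50 after a start, RefSeq, GRCm38.p6). A direct repeat of the kind that hepatocyte nuclear factor HNF4 recognises (CAAAGTNCA, either strand) occurred in 11 of these windows, 16.4%, against 1.41% of all 32851 windows. The 11 genes lie in subfamilies 2c, 2d and 3a and include the pericentral genes Cyp2c37, Cyp2c50 and Cyp3a11 and the perinatal gene Cyp3a16. They are shown here because they include pericentral and perinatal genes whose levels differ between arrays below, and the match is in capitals with 12 bases on either side, 5′ to 3′ along the gene.
Cyp2c37: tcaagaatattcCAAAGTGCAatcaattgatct
Cyp2c50: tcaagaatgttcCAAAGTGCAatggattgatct
Cyp2c40: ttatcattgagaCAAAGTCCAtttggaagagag
Cyp2c68: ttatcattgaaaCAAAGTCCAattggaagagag
Cyp2c69: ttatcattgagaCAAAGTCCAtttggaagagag
Cyp2c65: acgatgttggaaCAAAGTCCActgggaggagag
Cyp2c70: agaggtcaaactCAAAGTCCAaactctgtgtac
Cyp2d26: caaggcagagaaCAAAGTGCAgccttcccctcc
Cyp3a11: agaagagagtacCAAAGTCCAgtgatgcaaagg
Cyp3a16: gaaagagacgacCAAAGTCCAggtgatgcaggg
Cyp3a44: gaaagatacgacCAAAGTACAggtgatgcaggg
In GRCm38.p6 these stretches lie, in subfamily 2c, for Cyp2c37 at chr19:39992349-39992381 (plus strand), Cyp2c50 at chr19:40089606-40089638 (plus strand), Cyp2c40 at chr19:39812839-39812871 (minus strand), Cyp2c68 at chr19:39741158-39741190 (minus strand), Cyp2c69 at chr19:39886824-39886856 (minus strand), Cyp2c65 at chr19:39060878-39060910 (plus strand) and Cyp2c70 at chr19:40187330-40187362 (minus strand). Outside it they lie for Cyp2d26 at chr15:82794283-82794315 (minus strand), Cyp3a11 at chr5:145879943-145879975 (minus strand), Cyp3a16 at chr5:145469802-145469834 (minus strand) and Cyp3a44 at chr5:145805949-145805981 (minus strand). The match began at -63 relative to the start in Cyp2c37 and at -61 in Cyp2c50, and at -109, -99 and -95 in Cyp3a11, Cyp3a16 and Cyp3a44. The letters of a TATA box (TATAAA, either strand, at any place in the window) were in 37.3% of the members' windows, against 13.6% of all windows. A C/EBP-type site (TTGCNNAA, either strand) was in 26.9%, or 18 windows of 14 genes, against 10.8%. A D-box (TTATGNAA, either strand) was in 8.96% against 3.38%, and all 6 of these member sites are also C/EBP-type sites. The core of the Ahr response element (TNGCGTG, either strand) was in 1.49% against 5.07%. A match is a description of these letters and not evidence of binding.

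Most P450 genes had similar means in both genotypes. Of the 72 genes 0 passed an adjusted p of 0.05 in limma, where 2 of all 22180 genes (0.00902%) did. At an unadjusted p under 0.05, 6 were higher and 4 lower in Jag1+/-Rfng+/-, which is 8.33% and 5.56% of them, against 2.98% and 3.79% of all genes. The median difference over the 72 genes was 0.03 log2, against -0.01 over all genes, with 39 higher (54.2% of them, against 48.5% of all genes) and 33 lower (45.8% against 51.5%). The 48 genes above the absent range included 30 higher and 18 lower, where 45.6% of all genes above it were higher. They held 5 higher and 2 lower genes at an unadjusted p under 0.05, where such genes make up 3.48% and 5.31% of the 13926 tested. By 1.5-fold 6 were higher and 1 lower, where the background was 1.04% and 2.15%. Each count of higher genes in this paragraph includes Cyp2c55, whose probe set was chosen by its mean over both groups. Its second probe set read higher in controls (3.60 against 3.22) and differed by -0.15. The P450 genes varied more within a group than most genes, with a median SD of 0.28 in Jag1+/-Rfng+/- and 0.31 in controls, against 0.21 in either group over all genes. A difference of at least 1.5-fold was more common than the background, in 7 genes higher (9.72% against 0.748% of all genes) and 2 lower (2.78% against 1.42%), and the 7 had SDs of 0.28 to 1.42 among the control arrays.

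**Figure D1:**
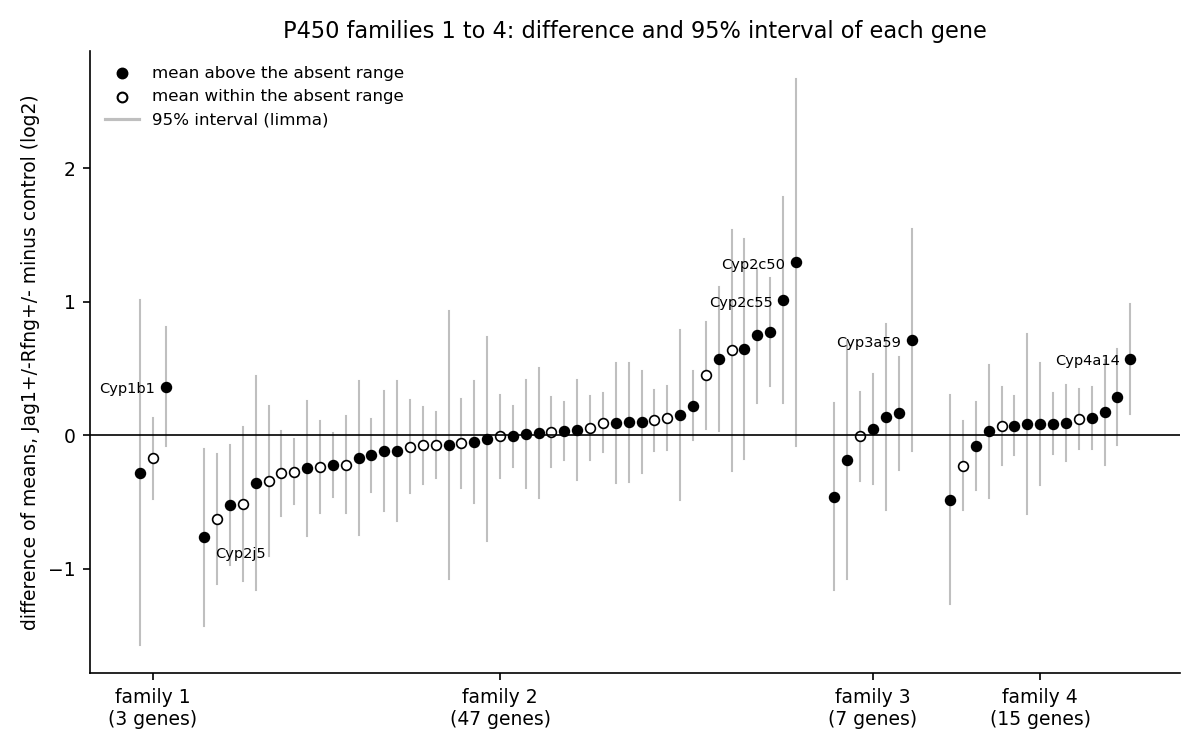
Difference of group means (Jag1+/-Rfng+/- minus control, log2, y axis) of each of the 72 P450 genes, sorted within families 1 to 4, with 95% intervals from limma and filled points for genes whose mean is above the absent range. Most points lie near 0, and the widest intervals belong to genes such as Cyp2c50 (1.29) that varied most between arrays.

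The medians of the families lay between -0.17 and 0.08 log2. In family 1 the median difference was -0.17 (1 higher, 2 lower), in family 2 it was -0.01 (22 higher, 25 lower), in family 3 it was 0.05 (4 higher, 3 lower) and in family 4 it was 0.08 (12 higher, 3 lower). Among genes above the absent range the family 1 median was 0.04 (1 higher, 1 lower). In family 2 it was then 0.01 (15 higher, 13 lower). Families 3 and 4 then had 0.09 (4 higher, 2 lower) and 0.08 (10 higher, 2 lower). Unadjusted p values under 0.05 occurred in 5 higher and 4 lower genes of family 2, in 1 higher gene of family 4, Cyp4a14, and in 0 genes of families 1 and 3. Over all genes the shares were 2.98% higher and 3.79% lower. Of those family 2 genes, 4 higher and 2 lower had means above the absent range. Within family 2 the median was 0.12 over the 4 genes of subfamily 2a, -0.15 over the 5 of 2b, 0.05 over the 14 of 2c, 0.03 over the 9 of 2d and -0.09 over the 7 of 2j. In that order 3, 2, 9, 6 and 3 of these genes had means above the absent range. The 18 measured P450 genes of families 5 and above, which mostly act on steroids, bile acids, retinoids and vitamin D, had a median of 0.17, with 17 higher and 1 lower. At an unadjusted p under 0.05, 2 of them were higher, against 2.98% of all genes, and 1 of these 2 had a mean above the absent range.

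The P450 gene with the lowest p was Cyp2d9, a testosterone hydroxylase that is male-predominant in adult mouse liver. Cyp2d9 (chromosome 15) read 9.60, 9.49, 10.09, 9.70 and 9.86 on Jag1+/-Rfng+/- arrays 1 to 5, against 8.77, 9.18, 8.40, 9.44 and 9.09 on control arrays 1 to 5. The groups did not overlap, and control array 4 came closest. Cyp2d9 averaged 9.75 ± 0.24 in Jag1+/-Rfng+/- and 8.97 ± 0.40 in controls (SD, n = 5 each), a difference of 0.77 ± 0.19 log2 (SE; limma adjusted p = 0.332 over all genes, unadjusted p = 0.00136, exact permutation p = 0.00794). It was 1.71-fold and larger than the SD of either group, but did not pass the adjustment. The exact permutation p is two-sided and the smallest that 5 against 5 arrays can give, and 1.38% of all genes showed such a separation, against 2.78% of the P450 genes. High Xist was found on 2 arrays of each group, and with the Xist level as a covariate the difference was 0.78. The 250 bases before its start (RefSeq, GRCm38.p6, chr15:82452127-82452376, plus strand) hold TTTATA, in capitals, as the only match to the motifs above. These letters match the TATA search string on the opposite strand.
Cyp2d9: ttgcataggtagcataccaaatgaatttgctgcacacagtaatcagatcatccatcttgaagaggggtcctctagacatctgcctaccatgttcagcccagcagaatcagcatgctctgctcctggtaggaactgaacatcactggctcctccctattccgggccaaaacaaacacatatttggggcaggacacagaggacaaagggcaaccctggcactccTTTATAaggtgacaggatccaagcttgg

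Other genes of subfamily 2d gave differences of both signs. Cyp2d11 was the other P450 gene whose groups did not overlap, at 3.20, 2.56, 2.18, 2.19 and 2.19 on the Jag1+/-Rfng+/- arrays, against 2.04, 1.83, 2.08, 2.05 and 2.07 on the control arrays. Only Jag1+/-Rfng+/- replicate 1 was above the absent range, so this difference of 0.45 concerns readings at the floor, and without that array it was 0.27. Cyp2d34 read 1.90, 2.62, 2.73, 2.78 and 2.30 on the Jag1+/-Rfng+/- arrays, against 3.09, 2.95, 2.66, 2.95 and 3.82 on the control arrays, and its difference of -0.63 also lay around the top of the absent range. On 7 arrays (4 Jag1+/-Rfng+/- and 3 control) the sample names carry 1 common number of unstated meaning, and among these, the Cyp2d34 difference was -0.25. Cyp2d13 was above the absent range on every array and differed by 0.57 ± 0.25 log2 (SE; limma adjusted p = 0.706 over all genes, unadjusted p = 0.04, exact permutation p = 0.0952), with overlapping groups of 5.20 to 6.55 in Jag1+/-Rfng+/- and 4.78 to 5.90 in controls. Cyp2d26 was tightly grouped, at 10.93 ± 0.20 in Jag1+/-Rfng+/- and 11.16 ± 0.08 in controls (SD, n = 5 each), and Cyp2d22 at 7.79 ± 0.11 and 7.76 ± 0.14. The 95% interval of the Cyp2d22 difference was -0.19 to 0.25.

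Cyp2a4, another testosterone hydroxylase and female-predominant in adults, read 5.90, 5.18, 4.60, 4.63 and 4.99 on Jag1+/-Rfng+/- arrays 1 to 5, against 4.48, 4.01, 4.26, 4.69 and 4.10 on control arrays 1 to 5. Jag1+/-Rfng+/- replicate 1 was the highest array and control array 4 lay within the Jag1+/-Rfng+/- range. The difference was 0.75 ± 0.23 log2 (SE; limma adjusted p = 0.537 over all genes, unadjusted p = 0.00728, exact permutation p = 0.0238). With the portal fibroblast mean as a covariate it was 0.39. That mean itself differed by -0.82 between the groups, so here and below the covariate cannot separate these cells from genotype. The part of these cells in the Cyp2a4 difference was not tested. Cyp2a5, a coumarin hydroxylase and close relative of Cyp2a4, was within the absent range on every array, at most 2.17 in Jag1+/-Rfng+/- and 1.75 in controls. The bases before the start of Cyp2a4 (chr7:26306942-26307191, plus strand) are shown with the site that matches both the C/EBP-type motif and the D-box, bound by the circadian factor DBP in this gene family, and with the TATA box in capitals.
Cyp2a4: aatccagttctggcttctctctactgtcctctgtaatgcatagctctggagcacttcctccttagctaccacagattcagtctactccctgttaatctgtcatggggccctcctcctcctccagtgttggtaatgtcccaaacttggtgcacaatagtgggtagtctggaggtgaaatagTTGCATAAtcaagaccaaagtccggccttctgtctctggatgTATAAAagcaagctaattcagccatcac
The site began at -70 and the TATA box at -28 relative to the start.

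Cyp4a14, a fatty acid hydroxylase driven by PPARalpha, read 10.58, 10.49, 10.65, 10.25 and 10.50 on the Jag1+/-Rfng+/- arrays, against 9.94, 9.94, 9.23, 10.47 and 10.03 on the control arrays. Control arrays 1, 2, 3 and 5 were below every Jag1+/-Rfng+/- array and control array 4 was inside their range. The difference of 0.57 ± 0.19 log2 (SE; limma adjusted p = 0.597 over all genes, unadjusted p = 0.0106, exact permutation p = 0.0159) was 1.49-fold, and it was 0.26 with the portal fibroblast covariate. The other Cyp4a gene above the absent range, Cyp4a31, averaged 9.36 ± 0.30 in Jag1+/-Rfng+/- and 9.07 ± 0.26 in controls (SD, n = 5 each), and Cyp4a29 was within the absent range throughout. Ppara itself averaged 7.07 ± 0.18 in Jag1+/-Rfng+/- and 7.06 ± 0.39 in controls.

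Besides Cyp2d34, the genes that read lower at an unadjusted p under 0.05 were Cyp2j5, Cyp2j8 and Cyp2b13. Cyp2j5, an arachidonic acid epoxygenase, read 6.45, 8.28, 8.23, 7.86 and 7.64 on the Jag1+/-Rfng+/- arrays, against 8.82, 8.07, 8.49, 8.67 and 8.23 on the control arrays. Jag1+/-Rfng+/- replicate 1 was far below the other arrays. Replicates 4 and 5 of that group were also below every control array, and replicates 2 and 3 lay within the control range. The difference was -0.77 ± 0.30 log2 (SE; limma adjusted p = 0.669 over all genes, unadjusted p = 0.0274, exact permutation p = 0.0397), -0.46 without that array, -0.48 with the portal fibroblast covariate and -0.41 among the 7 arrays with the common number. Cyp2j8 (-0.27) and Cyp2j11 (-0.24) were within the absent range on every array, and Cyp2g1 (-0.29) on 9 of 10. Cyp2b13, female-predominant in adults, read 6.28, 6.74, 6.66, 5.65 and 5.98 on the Jag1+/-Rfng+/- arrays, against 6.73, 6.55, 6.72, 7.21 and 6.72 on the control arrays, a difference of -0.52 ± 0.21 log2 (SE; limma adjusted p = 0.667 over all genes, unadjusted p = 0.0263, exact permutation p = 0.0714), and -0.32 with the mean of the hepatocyte markers as a covariate. Its relative Cyp2b9 averaged 10.53 ± 0.21 in Jag1+/-Rfng+/- and 10.68 ± 0.17 in controls (SD, n = 5 each), with overlapping groups. The windows of both genes are identical at 99.3% of their 300 positions. This was the highest value among 1770 pairs of members, followed by 68.7% for Cyp3a25 and Cyp3a57. Positions were compared in order from the start without alignment, so likeness at shifted positions is missed. For example, the printed stretches of Cyp2c40 and Cyp2c69 have the same letters, but their matches begin at -45 and -75. The bases before the start of Cyp2b13 (chr7:26061245-26061494, plus strand) are shown with the differing positions in capitals.
Cyp2b13: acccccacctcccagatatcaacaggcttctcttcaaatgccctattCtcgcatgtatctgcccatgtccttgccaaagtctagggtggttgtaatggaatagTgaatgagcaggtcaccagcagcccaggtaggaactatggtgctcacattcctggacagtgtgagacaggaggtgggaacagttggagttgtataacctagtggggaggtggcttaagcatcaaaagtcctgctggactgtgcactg
Counted from 1 at the 5′ end of this window, Cyp2b13 over Cyp2b9 they are C48T and T104C. Whether probes of such close relatives measure each other's transcripts was not tested, since the probe sequences were not used here. Cyp2b10, the classical target of the constitutive androstane receptor, was above the absent range only on control array 4 (3.64), at 1.83 to 2.11 in Jag1+/-Rfng+/- and 1.96 to 3.64 in controls.

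**Figure D2:**
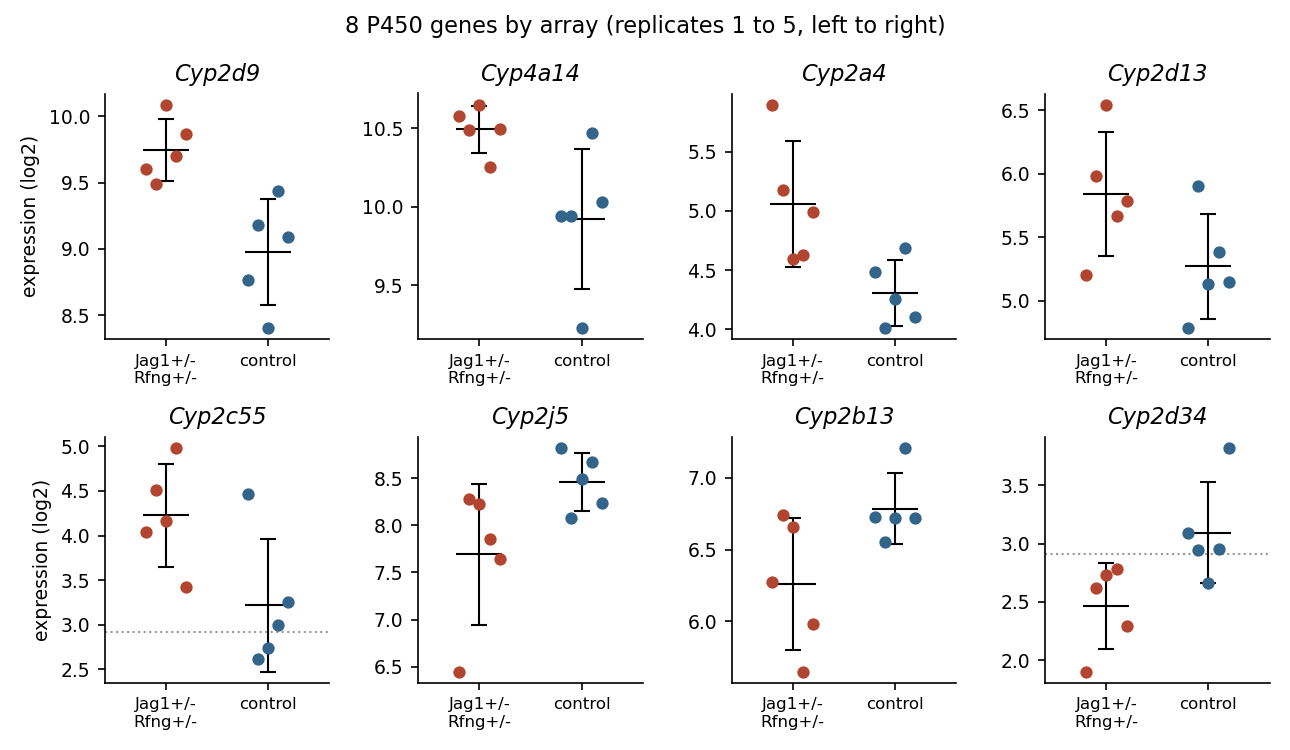
Log2 expression (y axes, each on its own range) of 8 P450 genes on the 5 Jag1+/-Rfng+/- arrays (red, left) and the 5 control arrays (blue, right), replicates 1 to 5 from left to right, with mean and SD in black and the top of the absent range (2.91) as a dotted line where it falls in the panel. Of these 8 genes only Cyp2d9 shows groups that do not overlap.

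A pattern across arrays ran through both genotypes. It included pericentral genes, but also P450 genes outside that list, such as Cyp3a16, Cyp2c23 and Cyp2c70. Cyp2e1, the pericentral enzyme of ethanol and acetaminophen, read 10.41, 10.73, 10.91, 10.74 and 9.37 on Jag1+/-Rfng+/- arrays 1 to 5, against 10.45, 10.59, 9.29, 11.01 and 10.94 on control arrays 1 to 5. Jag1+/-Rfng+/- replicate 5 and control replicate 3 were about 1 log2 unit below the others, and the rest of both groups overlapped. Cyp1a2, which metabolises caffeine, read 7.48, 9.13, 9.51, 9.54 and 7.04 on the Jag1+/-Rfng+/- arrays, against 9.18, 8.55, 7.08, 9.58 and 9.69 on the control arrays, with the same arrays lowest in each group and Jag1+/-Rfng+/- replicate 1 also low. Cyp3a16, the perinatal gene, read 7.23, 7.38, 7.66, 7.17 and 6.06 on the Jag1+/-Rfng+/- arrays, against 7.32, 6.76, 6.05, 8.10 and 8.21 on the control arrays, again lowest on those arrays. Over the 48 P450 genes above the absent range, the lowest of the 5 Jag1+/-Rfng+/- arrays was replicate 5 for 21 genes, and the lowest of the 5 control arrays was replicate 3 for 20, while control replicate 4 was the highest control for 19. These counts were not made over all genes, and Jag1+/-Rfng+/- replicate 5 was the least similar array over all probe sets. Whether the counts are particular to P450 genes was therefore not tested.

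Pericentral genes that are not P450s were low on the same arrays. The mean of the 11 measured pericentral markers, which include Glul, Gulo, Rhbg and Tbx3, was -0.66 relative to the control mean on Jag1+/-Rfng+/- replicate 5 and -0.87 on control replicate 3. On the other arrays it was -0.02 to 0.42 in Jag1+/-Rfng+/- and -0.10 to 0.45 in controls. Glul, glutamine synthetase of the cells next to the central vein, read 10.47, 10.76, 10.62, 10.63 and 9.84 on the Jag1+/-Rfng+/- arrays, against 10.66, 10.58, 9.22, 10.70 and 10.91 on the control arrays. The mean of the 7 pericentral P450 genes above the absent range was -0.49 on Jag1+/-Rfng+/- replicate 5 and -1.21 on control replicate 3, against 0.33 to 0.80 on the other Jag1+/-Rfng+/- arrays and -0.01 to 0.62 on the other controls. The mean of the 13 hepatocyte markers was at -0.14 and -0.02 on these arrays. Apart from Apoc3 their signals were at 10.32 or above, a level that Cyp2e1 and Glul also reached on most arrays. Other cell types also stood apart there: portal fibroblast markers were at -1.52 on Jag1+/-Rfng+/- replicate 5 and 0.41 on control replicate 3, and erythroid markers at 2.50 and -0.67. The part of these cells, or of the position of the captured hepatocytes, in the P450 values was not tested.

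Between the genotypes 0 pericentral P450 genes passed the adjusted test. Of the 9 genes on the list 7 were higher and 2 lower, with a median difference of 0.15, where 48.5% of all genes were higher. Cyp2a5 and Cyp2c29, among the higher genes, had means within the absent range. The 7 genes above it were 5 higher and 2 lower, also with a median of 0.15, where 45.6% of all genes above it were higher. Of the list 1 gene, Cyp4a14, was higher at an unadjusted p under 0.05, against 2.98% of all genes. Cyp2c50, an enzyme of arachidonic acid metabolism, read 5.50, 5.70, 6.06, 5.09 and 3.63 on the Jag1+/-Rfng+/- arrays, against 3.05, 4.15, 1.92, 5.09 and 5.29 on the control arrays, a difference of 1.29 ± 0.63 log2 (SE; limma adjusted p = 0.743 over all genes, unadjusted p = 0.0626, exact permutation p = 0.135). Control arrays spanned more than 3 log2 units, control array 3 was within the absent range, and without it the difference was 0.80. Cyp2c37 differed by 0.65, or 0.33 without control replicate 3 and 0.38 with the portal fibroblast covariate, while Cyp2c54 differed by 0.15 and turned to -0.14 without control replicate 3. Cyp2e1 differed by -0.03, with a 95% interval of -0.79 to 0.74, Cyp3a11 by 0.05 (-0.37 to 0.46) and Cyp1a2 by -0.28 (-1.57 to 1.01). The directions of Cyp2e1, Cyp1a2 and Cyp3a11 depend on single arrays: without control replicate 3 the differences were -0.32, -0.71 and -0.07, and without Jag1+/-Rfng+/- replicate 5 those of Cyp2e1 and Cyp1a2 were 0.24 and 0.09.

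Cyp2f2, the periportal member and the enzyme that activates naphthalene, read 5.87, 8.46, 8.35, 7.82 and 8.64 on Jag1+/-Rfng+/- arrays 1 to 5, against 8.49, 7.76, 7.99, 8.09 and 7.17 on control arrays 1 to 5. Jag1+/-Rfng+/- replicate 1 was about 2 log2 units below the others of its group, while Jag1+/-Rfng+/- replicate 5, low in the pericentral genes, was the highest of all 10 arrays. Cyp2f2 differed by -0.07 with an interval of -1.08 to 0.93, and by 0.42 without replicate 1. The second probe set of the gene differed by 0.07. On replicate 1 the periportal markers Hal and Etnppl were the lowest of all arrays, at 5.44 and 5.75, but 4 of the 10 periportal markers were above their control mean there. The list mean of -0.42 on replicate 1 was close to -0.40 on Jag1+/-Rfng+/- replicate 4 and -0.41 on control replicate 2. On replicate 1 Cyp2c29, a pericentral gene within the absent range on most arrays, read 5.02, against 2.41 to 2.97 on the other Jag1+/-Rfng+/- arrays and 2.21 to 3.06 on the control arrays. The second probe set of Cyp2c29, within the absent range in both group means, differed by -0.13. The 10 measured periportal markers had a median difference of -0.02, with 5 higher and 5 lower, and Hal and Etnppl, at -0.78 and -0.84, were the 2 with an unadjusted p under 0.05, while Ass1 differed by 0.32. The 11 pericentral markers had a median of 0.22, with 7 higher (Slc1a2 at 0.51 and Aldh1a1 at 0.62, of which only Aldh1a1 had an unadjusted p under 0.05) and 4 lower (Oat at -0.33), and -0.19 without control replicate 3. The sequences before the starts of Cyp2e1 (chr7:140763569-140763818, plus strand) and Cyp2f2 (chr7:27119705-27119954, plus strand) are set side by side as the pericentral and the periportal example, with motif matches in capitals.
Cyp2e1: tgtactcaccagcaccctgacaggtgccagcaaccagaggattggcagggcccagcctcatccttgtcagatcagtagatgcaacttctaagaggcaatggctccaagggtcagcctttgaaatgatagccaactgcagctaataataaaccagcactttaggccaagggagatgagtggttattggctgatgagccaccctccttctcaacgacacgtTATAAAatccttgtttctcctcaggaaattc
Cyp2f2: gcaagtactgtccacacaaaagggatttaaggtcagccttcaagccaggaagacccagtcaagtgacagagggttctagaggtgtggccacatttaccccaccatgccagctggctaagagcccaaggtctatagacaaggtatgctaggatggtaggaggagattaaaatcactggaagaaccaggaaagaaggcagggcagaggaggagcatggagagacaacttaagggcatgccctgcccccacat
Cyp2e1 holds a TATA box at -31 relative to the start, and the Cyp2f2 window holds none of the motifs searched, which says only that these letters are not in it.

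**Figure D3:**
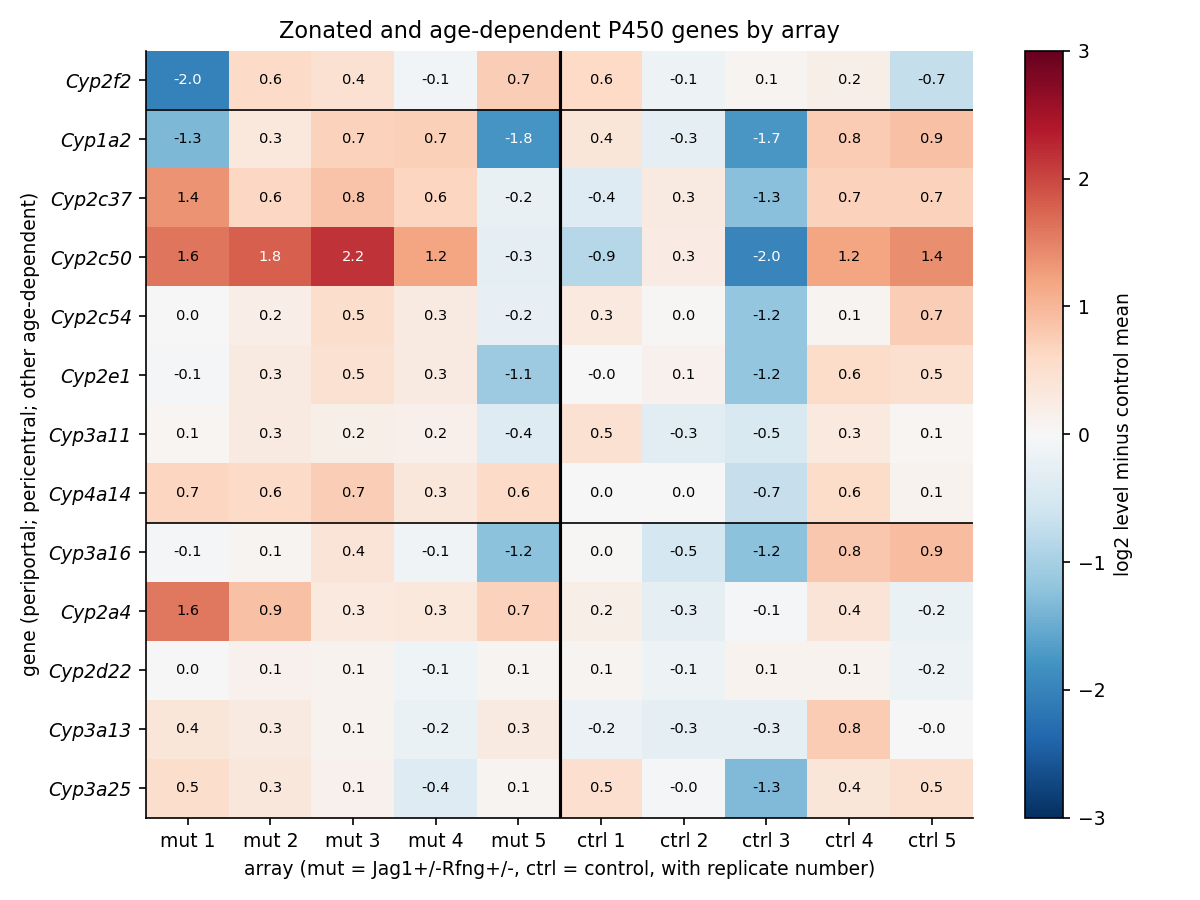
Log2 level minus the control mean of 13 zonated or age-dependent P450 genes (rows) on each array (columns, Jag1+/-Rfng+/- left and control right), with the values printed. All 7 pericentral genes are below the control mean on control replicate 3, and all but Cyp4a14 on Jag1+/-Rfng+/- replicate 5, and Cyp2f2 is low on Jag1+/-Rfng+/- replicate 1 (-2.0).

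**Figure D4:**
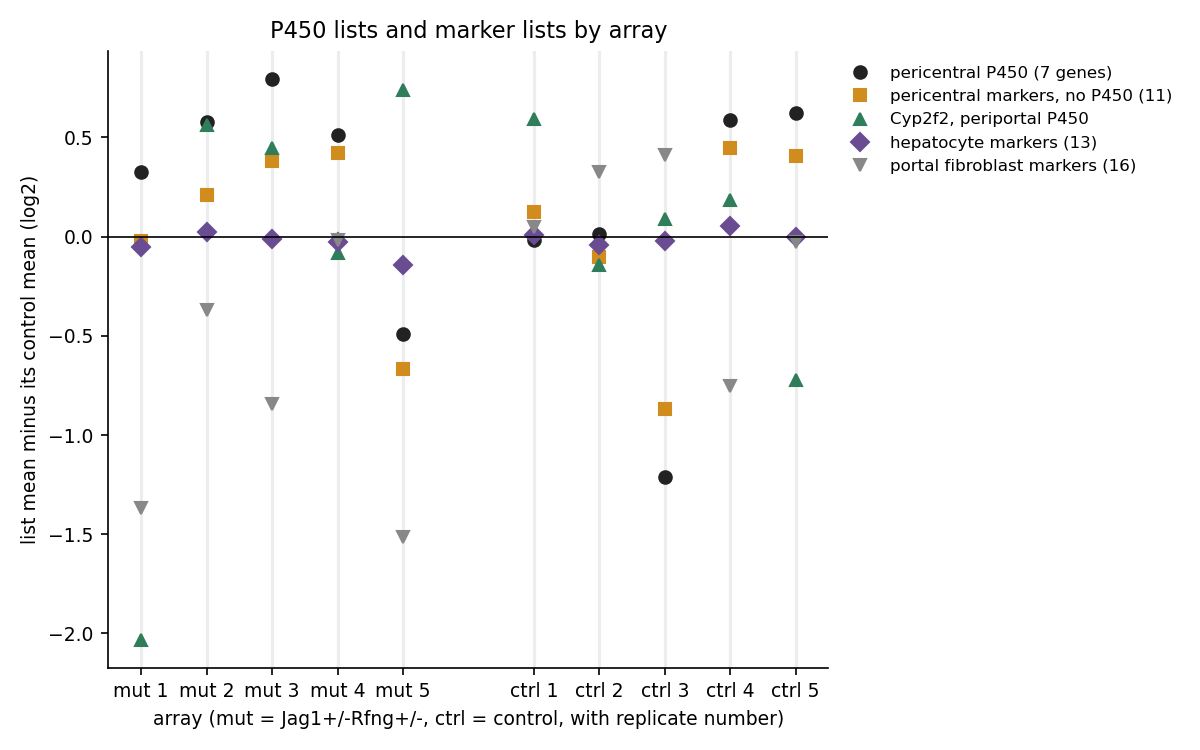
Mean of each list minus its control mean (log2, y axis) on the 5 Jag1+/-Rfng+/- arrays (left) and the 5 control arrays (right). The pericentral P450 genes and the pericentral markers that are not P450s are lowest on Jag1+/-Rfng+/- replicate 5 (-0.49 and -0.66) and control replicate 3 (-1.21 and -0.87), while hepatocyte markers stay between -0.14 and 0.06.

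Grouped by age of onset, genes of either direction stood in the same list, with differences from -0.51 (Cyp2b10) to 0.75 (Cyp2a4) among those of late onset. The perinatal gene Cyp3a16 differed by -0.19, with an interval of -1.08 to 0.71. The 3 measured genes of the first days (Cyp2e1, Cyp3a11 and Cyp4a14) had a median of 0.05, with 2 higher and 1 lower. The 8 genes that rise later had a median of 0.08, with 5 higher and 3 lower, and 1, Cyp2a4, had an unadjusted p under 0.05. Of these 8, Cyp1a2, Cyp2a4, Cyp2d22, Cyp2f2, Cyp3a13 and Cyp3a25 already had means above the absent range at 1 week, while Cyp2b10 and Cyp2c29 did not. Cyp3a25 averaged 8.66 ± 0.34 in Jag1+/-Rfng+/- and 8.52 ± 0.77 in controls, and Cyp3a13 averaged 6.21 ± 0.22 and 6.04 ± 0.43 (SD, n = 5 each). No test compared genes of early and late onset.

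Cyp2c55 read 4.05, 4.52, 4.17, 4.98 and 3.42 on the Jag1+/-Rfng+/- arrays, against 4.47, 2.62, 2.74, 3.00 and 3.25 on the control arrays, and its difference of 1.01 ± 0.35 log2 (SE; limma adjusted p = 0.609 over all genes, unadjusted p = 0.0146, exact permutation p = 0.0556) was 2.01-fold. Control array 1 lay within the Jag1+/-Rfng+/- range. The second probe set of the gene differed by -0.15, so that the mean of both gave 0.43 and the direction is uncertain. The probe set used had the higher mean only in Jag1+/-Rfng+/- (4.23 against 3.44), while in controls the second was higher (3.60 against 3.22). Cyp3a59 read 4.90 to 7.06 in Jag1+/-Rfng+/- and 4.93 to 6.26 in controls, a difference of 0.71 (interval -0.12 to 1.54), and 1.18 among the 7 arrays with the common number. Cyp1b1, a target of the aryl hydrocarbon receptor that is mainly expressed outside hepatocytes, averaged 3.38 ± 0.40 in Jag1+/-Rfng+/- and 3.02 ± 0.33 in controls (SD, n = 5 each). Its family member Cyp1a1, which needs an activated receptor, had means of 2.34 and 2.52 within the absent range, and exceeded it only on control array 2 (3.00).

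Of 24 measured receptors and transcription factors 12 were higher and 12 lower, with a median difference of -0.004. At an unadjusted p under 0.05 there was 1 gene in each direction, where 2.98% of all genes were higher and 3.79% lower. These 2 genes were Cebpb, a liver-enriched factor of the acute response, at 0.41, and Onecut1, a hepatocyte and biliary factor, at -0.48. The Onecut1 groups did not overlap (6.39 to 7.04 in Jag1+/-Rfng+/- and 7.06 to 7.72 in controls), as in 1.38% of all genes. Rxra, the shared partner of the nuclear receptors, differed by 0.19. The receptor genes Nr1i3, Nr1i2 and Ahr differed by 0.37, -0.08 and -0.19, with limma unadjusted p of 0.131, 0.629 and 0.34. The 5 measured genes of electron transfer to P450 enzymes had a median of 0.004, and among them Cyb5b differed by 0.23, Cyb5a by -0.08 and Pgrmc2 by -0.04. Of the 8 measured genes of heme synthesis and turnover 8 were higher, with a median of 0.21 and 1, Hmox1, at an unadjusted p under 0.05 (0.56), followed by Ppox at 0.44 and Fech at 0.29. Without Jag1+/-Rfng+/- replicate 5 the list had 6 higher and 2 lower (Alad and Cpox) and a median of 0.09, with Ppox at 0.21 and Fech at 0.12. The mean of the list was 0.88 on Jag1+/-Rfng+/- replicate 5, against 0.06 to 0.18 on the other Jag1+/-Rfng+/- arrays and -0.27 to 0.17 on the controls. The mean of 6 erythroid markers was also high on that array, at 2.50, against -0.29 to 0.19 on the other Jag1+/-Rfng+/- arrays and -0.67 to 0.65 on the controls, and the part of erythroid cells in the heme genes was not tested. Of 13 acute phase genes, which accompany inflammation, a state in which P450 genes are known to be repressed, 8 were higher and 5 lower, with a median of 0.02. Lrg1 differed by 0.84 (limma adjusted p = 0.062), Lcn2 by 0.44 and Apcs by -0.22.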

How the data were processed

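RNA from laser-captured portal tracts was prepared as biotin-labelled cDNA for 10 single-colour arrays, per the labels' protocols. The values deposited by the authors are log2 expression levels of 33649 probe sets on each array. The submitters' processing notes list RMA and Partek 6.6 without saying what each did. No scanner files entered the comparison, so signal over background is unknown, and the number of arrays limits the precision. The table held 0 columns of no sample, and 0 pairs of arrays were identical.

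In the platform annotation 23521 probe sets have 1 symbol, 1814 several and 8314 none. The 22180 genes on 1-symbol probe sets went into 1 limma fit (limma 3.58.1, R 4.3.3, lmFit and eBayes without covariates, two-sided, Benjamini-Hochberg over all genes, threshold 0.05), and single values also into an exact permutation test over 252 splits. The fit was tested on simulated data. Chromosomes and promoter windows are RefSeq's for GRCm38.p6. Lists were described by counts and medians only.

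The members and lists were chosen with earlier results of these data known. The rule named all members of the zonation, age and family 1 lists, the 8 members with the lowest p in each direction, and the 3 context genes with the lowest p per list. Cyp2b9, Cyp4a31, Cyp4a29, Glul and the receptor genes beyond these were chosen for naming with their values in view. The alternatives left out single arrays, added the replicate number as a block, kept only the 7 arrays whose sample names carry 1 common number, weighted arrays, used trend and robust eBayes, renormalized by quantiles, median or cyclic loess, kept genes above 3.74 (the median of all gene means), averaged a gene's probe sets, or added a hepatocyte, portal fibroblast or Xist covariate. Chosen after seeing the data were the common-number arrays without Jag1+/-Rfng+/- replicate 5 and a covariate of pericentral markers.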

Additional observations from a re-analysis of the deposited data

Results flagged for a closer look

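Among 60 groups of 5 arrays, 1 per genotype for each of the 30 P450 genes named by rule, 6 held an array set apart. The gap of such an array to its nearest neighbour was more than 0.71 of the group's range. The nominal rate of about 1 in 20 groups assumes independent normal values, whereas these groups share arrays. The share over all genes was not computed, so whether 6 is more than usual was not tested. Cyp2c29 read 5.02 on Jag1+/-Rfng+/- replicate 1, where the next array of that group read 2.97. Cyp2a5 read 2.17 on Jag1+/-Rfng+/- replicate 5, next to 1.81, both within the absent range. Cyp3a13 read 6.79 and Cyp2b13 read 7.21 on control replicate 4, next to 6.02 and 6.73. Cyp1b1 read 2.45 on control replicate 1, below the next control at 3.06. Cyp2d11 read 1.83 on control replicate 2, next to 2.04, both within the absent range.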

How the results depend on the processing

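No P450 gene passed an adjusted p of 0.05 in limma under any of the 24 alternatives run (0 genes each time), and the lowest adjusted p of a member among them was 0.221. The counts at an unadjusted p under 0.05, 6 higher and 4 lower, were less stable. Leaving out 1 array at a time gave 4 to 9 higher and 2 to 6 lower, with 2 lower without Jag1+/-Rfng+/- replicate 5, control replicate 1 or control replicate 4. Array weights gave 11 higher, the hepatocyte covariate 11 higher and 1 lower, and the portal fibroblast covariate 3 higher. The 7 arrays with 1 common number in their names gave 0 lower with and 0 lower without replicate 5, and genes above the median level, where 41 members were tested, gave 2 lower. The causes were not tested. The median difference ranged from -0.05 to 0.08 and stayed within the SD of the members' median level over control arrays. Replicate numbers did not pair the samples: the correlations of same-numbered deviations were -0.23 to 0.06, and 1 of 10 samples correlated best with its own number. With the replicate number as a block the counts were 6 higher, 4 lower and 0 adjusted. Cyp2d9, Cyp2a4, Cyp4a14, Cyp2c50, Cyp2c37 and Cyp2d13 stayed higher and Cyp2j5 and Cyp2b13 stayed lower under each of the 24 alternatives, Cyp2d9 between 0.54 and 0.89. Cyp2c55, too dim for the fit of genes above the median level, was higher in the other 23, although its second probe set alone gave -0.15. Lrg1 passed under 6 alternatives, among them quantile normalization, cyclic loess and array weights. RMA values carry no detection call, so differences of the 24 members within the absent range have no firm size.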

Other observations

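P450 genes outside families 1 to 4 leaned one way in value, with 17 of 18 higher in Jag1+/-Rfng+/-, where 48.5% of all genes were. However, 0 passed an adjusted p of 0.05 in limma, and 8 had means within the absent range. Higher at an unadjusted p under 0.05 were 2 of them, against 2.98% of all genes. Cyp27a1, the mitochondrial sterol hydroxylase that starts the alternative route of bile acid synthesis, read 6.72 to 7.45 on the Jag1+/-Rfng+/- arrays, against 4.96 to 6.66 on the control arrays. The groups did not overlap, the difference was 1.00 ± 0.27 log2 (SE; limma adjusted p = 0.443 over all genes, unadjusted p = 0.00331, exact permutation p = 0.00794), and control replicate 3, low in the pericentral P450 genes, was the lowest array. Cyp7a1, the rate-limiting enzyme of the classical route, read 6.56 to 8.22 in Jag1+/-Rfng+/-, against 4.41 on the same control array and 6.17 to 8.14 on the other controls.

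Cyp17a1, a steroid hydroxylase, read 5.47 on Jag1+/-Rfng+/- replicate 5 and 1.99 to 2.43 on the other 9 arrays, within the absent range. These 3 genes were named after their values were seen, and no explanation was tested.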
